A study of Mus musculus with 6 samples.

Results

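Caveolae are small flask-shaped pits of the plasma membrane, and the 9 genes described here encode the proteins that build and hold them: the caveolins (Cav1, Cav2 and Cav3), the cavins (Cavin1, Cavin2 and Cavin3) and the neck and membrane-bending proteins Ehd2, Pacsin2 and Pacsin3. They were taken by gene symbol from the table of read counts and are 9 of its 55335 genes. No measured value entered that rule, but the members were chosen with earlier results of these data known. Caveolins insert into the inner leaflet and form the bulb. Cavins then coat it from the cytosol, and the ATPase EHD2 and the F-BAR proteins PACSIN2 and PACSIN3 gather at the neck. Caveolae are known to flatten when the membrane is stretched, which releases cavins and supplies spare membrane, and they are plentiful in fibroblasts, endothelium, adipocytes and muscle.

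The cells were MEFs, a cultured line of mouse embryonic fibroblasts labelled WT, grown in serum-containing medium. In the Confine group, cells had crossed a transwell membrane with 3 μm pores and were collected 15 h after seeding. The Ctrl group was the parental MEF culture. Both groups are the same line with no transgene or drug. Cells that stayed above the membrane were not a group. A change during passage and a prior difference of the cells that passed therefore cannot be told apart. The paper's transwell method, given for a wider pore, seeds cells in serum-free medium above serum-containing medium. Serum, the insert and reseeding may thus also differ between the groups, and their part was not tested.

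Each group had 3 columns of counts, but Confine replicates 1 and 2 held the same numbers throughout the table, so they entered once. The comparison therefore rests on 3 Ctrl and 2 Confine libraries, and the repeated library is called Confine replicate 1. The labels do not say that libraries came from separate cultures, so p-values measure only the spread between these libraries. Total counts ranged from 22287210 to 32537550, and 3 counts, taken as the detection floor, correspond to 0.101 to 0.128 normalized CPM, the count scaled by the TMM-adjusted library total. Of 12 fibroblast markers 9 were expressed highly enough to be tested, while Thy1 had 0 to 2 counts, Lum 0 to 1 and Dcn 0 to 27, so the fibroblast label rests on the collagens, Vim and Fn1 rather than on those 3 markers.

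Cav1 and Cav2 are neighbours on chromosome 6 of GRCm38, with Cav2 at chr6:17281185-17289115, Cav1 at chr6:17306335-17341452, both on the plus strand and 17219 bases apart. Of the 9 members, 8 have a RefSeq promoter window (GRCm38.p6, 250 bases before to 50 after a gene's start), and Cavin3 has none. Below are the 250 bases before the start of Cav1 (the first of its 2 windows) and of its neighbour Cav2. They are followed by those of Cavin2, which fell, and of the paralog Cavin4, which rose most among the cavins. All 4 are plus-strand sequences, written 5′ to 3′, and capitals mark matches to the searched motifs.
Cav1, chr6:17306085-17306334: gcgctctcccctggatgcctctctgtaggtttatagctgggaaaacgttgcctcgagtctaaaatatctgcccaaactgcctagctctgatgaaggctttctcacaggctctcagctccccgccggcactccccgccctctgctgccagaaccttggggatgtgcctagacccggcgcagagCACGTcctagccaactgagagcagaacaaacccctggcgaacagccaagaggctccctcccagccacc
Cav2, chr6:17280935-17281184: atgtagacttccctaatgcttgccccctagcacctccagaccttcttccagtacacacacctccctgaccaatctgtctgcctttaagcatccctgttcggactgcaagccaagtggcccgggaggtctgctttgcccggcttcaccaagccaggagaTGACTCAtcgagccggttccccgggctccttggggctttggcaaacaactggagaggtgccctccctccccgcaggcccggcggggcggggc
Cavin2, chr1:51288876-51289125: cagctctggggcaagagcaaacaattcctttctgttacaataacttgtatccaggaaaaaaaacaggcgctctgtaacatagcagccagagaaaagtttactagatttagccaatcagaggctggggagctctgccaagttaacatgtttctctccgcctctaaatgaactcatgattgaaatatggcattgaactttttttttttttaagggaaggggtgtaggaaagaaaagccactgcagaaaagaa
Cavin4, chr4:48663264-48663513: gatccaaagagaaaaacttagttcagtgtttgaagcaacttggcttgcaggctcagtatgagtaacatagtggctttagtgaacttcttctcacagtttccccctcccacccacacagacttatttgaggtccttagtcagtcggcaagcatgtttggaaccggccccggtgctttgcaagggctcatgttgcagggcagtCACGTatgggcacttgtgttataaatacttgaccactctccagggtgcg

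The windows were searched on both strands for 5 short motifs. The first was ACGTG, a core bound by hypoxia-inducible factors that also lies within the E-box of other factors. The next was GCGTG, the other hypoxia core. The remaining motifs were TGANTCA, read by AP-1, then the TEAD motif GGAATG and the CArG box of serum response factor. Cav1 held ACGTG in the first of its 2 windows, read on the opposite strand, 68 bases before that start. Cavin4 also held ACGTG on the opposite strand, 49 bases before its start. Among all 32851 windows, 19.6% held ACGTG. Cav2 held TGANTCA 92 bases before its start and Pacsin2 in window 2 of its 3, 152 bases before that start, and 7.81% of all windows held this motif somewhere. GGAATG was found in windows of Cav3, Cavin1 and Pacsin3, and in 14.7% of all windows. The CArG box was in no member's window and in 1.63% of all windows. None of the 5 motifs was in the window of Cavin2 or in the second windows of Cav1 and Pacsin3. The Cavin2 window had the lowest GC content of the members at 43.3%, against a median of 52.7% over all windows. The ACGTG match of Cavin1 lay after the start, at position 32 counted from it in its first window, and Ehd2 held GCGTG 3 times. That motif was also in windows of Cav3 and Pacsin2, and in 32.4% of all windows. These are matches of letters and not sites of binding.

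Between Confine and Ctrl, 4 of the 9 members changed at an adjusted p under 0.05 in edgeR's quasi-likelihood test, with p-values adjusted over all 15881 genes tested by the Benjamini-Hochberg method. Cav1 and Cavin3 were upregulated, where 12.8% of all tested genes were, and Cavin2 and Pacsin2 were downregulated, where 10.2% were. In either direction 44.4% of the members and 23.0% of all tested genes passed, and the difference between these shares was not tested. The other 5 members did not pass, all 9 were expressed highly enough to be tested, and the members' median log2 fold change was 0.25 against -0.0021 over all genes. No member had an absolute log2 fold change above 1.5 beside an adjusted p under 0.05, where 8.00% of all tested genes did, 4.89% upwards and 3.11% downwards. In normalized CPM both Confine libraries lay above all 3 Ctrl libraries for 4 members (Cav1, Cav2, Cavin3 and Ehd2; 25.9% of all genes) and below them for Cavin2 and Pacsin2 (23.6% of all genes).

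**Figure D1:**
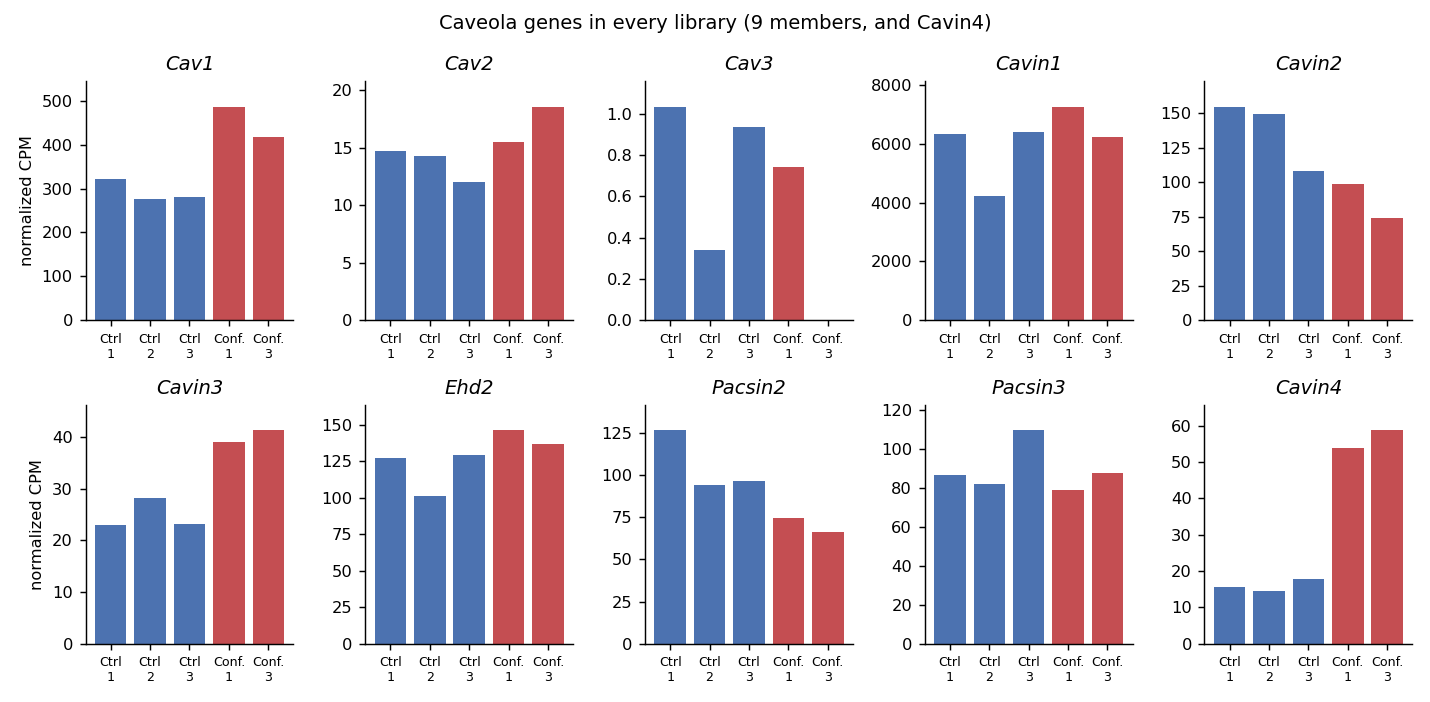
Normalized CPM (y axis, from 0, one scale per gene) of each of the 9 members and of the paralog Cavin4 in the 3 Ctrl (blue) and 2 Confine (red) libraries; each bar is 1 library. Both red bars stand above all blue bars for Cav1, Cav2, Cavin3, Ehd2 and Cavin4, below them for Cavin2 and Pacsin2, and overlap with them for Cav3, Cavin1 and Pacsin3.

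Cav1 (ENSMUSG00000007655.16) encodes caveolin-1, the main structural protein of caveolae outside striated muscle. Its level was 321.0, 276.8 and 280.2 normalized CPM in Ctrl replicates 1, 2 and 3, and 486.9 and 418.4 in Confine replicates 1 and 3. Both Confine libraries were above every Ctrl library. The mean rose from 292.7 ± 24.6 (SD, n = 3) to 452.7 ± 48.4 (SD, n = 2), a log2 fold change of 0.63 (SE 0.18, 1.55-fold, adjusted p = 0.0141). The call was lost without Ctrl replicate 3 (adjusted p = 0.0631), without Confine replicate 1 (0.143) and with libraries scaled by their size alone (0.0816).

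Cav2 (ENSMUSG00000000058.6) encodes caveolin-2, which forms hetero-oligomers with caveolin-1 and depends on it to reach the cell surface. It had 14.7, 14.3 and 12.0 normalized CPM in Ctrl and 15.5 and 18.6 in Confine. The groups did not overlap, but the gap between the highest Ctrl and the lowest Confine library was small against the spread within each group. The log2 fold change was 0.32 (SE 0.20, 95% interval -0.11 to 0.75, adjusted p = 0.290), an interval that contains both no change and the estimate of its neighbour Cav1.

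Cav3 (ENSMUSG00000062694.7, chr6:112459505-112472872, plus strand) encodes the muscle caveolin, and its reads were few. Ctrl held 30, 9 and 22 counts, Confine replicate 1 held 22 and Confine replicate 3 held 0, which allows up to 0.119 normalized CPM there. The Confine libraries thus lay on both sides of the Ctrl libraries' lowest value. The log2 fold change of -0.99 had a 95% interval from -2.68 to 0.70 (adjusted p = 0.420). The value rests on which Confine library is read. Without Confine replicate 3 it was -0.05 (adjusted p = 0.980). Without Confine replicate 1 only the library at 0 is left, which is assumed to vary as the Ctrl libraries do, and the adjusted p was then 0.0166.

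Cavin1 (ENSMUSG00000004044.9, chr11:100956733-100970887, minus strand), the coat protein needed for caveolae to form, was by far the most abundant member. It had 6319, 4212 and 6407 normalized CPM in Ctrl and 7266 and 6234 in Confine. Ctrl replicate 2 was the lowest, and Confine replicate 3 fell between the Ctrl libraries. The log2 fold change of 0.26 did not pass the test (SE 0.20, 95% interval -0.17 to 0.68, adjusted p = 0.400), and it was 0.08 without Ctrl replicate 2. Cavin1 alone took 0.456% to 0.676% of all counts of a library, which placed it between the 6th and the 13th gene by count, and it made up 84.9% to 89.4% of the counts of the 9 members.

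Cavin2 (ENSMUSG00000045954.7, chr1:51289126-51302960, plus strand) encodes a cavin that joins Cavin1 in the coat and is linked to membrane curvature. It had 154.7, 149.2 and 108.3 normalized CPM in Ctrl and 98.3 and 73.9 in Confine. Both Confine libraries were below every Ctrl library, although Ctrl replicate 3 was nearer to Confine replicate 1 than to the other Ctrl libraries. Cavin2 fell from 137.4 ± 25.3 (SD, n = 3) to 86.1 ± 17.3 (SD, n = 2), a log2 fold change of -0.67 (SE 0.21, 0.627-fold, adjusted p = 0.0236). The call was lost without Ctrl replicate 1 (adjusted p = 0.0875) and without Confine replicate 3 (log2 fold change -0.48, adjusted p = 0.305).

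Cavin3 (ENSMUSG00000037060.3, chr7:105480083-105482300, minus strand) encodes a protein kinase C delta binding protein that is also a coat subunit. It had 23.0, 28.2 and 23.1 normalized CPM in Ctrl and 39.0 and 41.3 in Confine, with a clear gap between the groups. It rose from 24.8 ± 2.94 (SD, n = 3) to 40.1 ± 1.58 (SD, n = 2), a log2 fold change of 0.70 (SE 0.18, 1.62-fold, adjusted p = 0.00933). The call was lost without Ctrl replicate 1 (adjusted p = 0.0552), Confine replicate 1 (0.0652) or Confine replicate 3 (0.112), and with library size alone (0.0638). Its exons share 374 bases with Gm45667, an unclassified transcript on the opposite strand that held 2 to 14 counts, against 544 to 1155 counts for Cavin3.

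Ehd2 (ENSMUSG00000074364.6, chr7:15946958-15967567, minus strand) encodes the ATPase that rings the caveolar neck and keeps caveolae at the surface. It had 127.2, 101.1 and 129.4 normalized CPM in Ctrl and 146.2 and 136.9 in Confine. The groups did not overlap, but the difference did not pass the test (log2 fold change 0.25, SE 0.18, 95% interval -0.13 to 0.63, adjusted p = 0.366).

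Pacsin2 (ENSMUSG00000016664.16, chr15:83375607-83464606, minus strand) encodes the widely expressed F-BAR protein that bends membrane at the neck. It had 126.5, 94.1 and 96.4 normalized CPM in Ctrl and 74.8 and 66.4 in Confine, with every Confine library below every Ctrl library. Pacsin2 fell from 105.7 ± 18.1 (SD, n = 3) to 70.6 ± 5.90 (SD, n = 2), a log2 fold change of -0.58 (SE 0.19, 0.668-fold, adjusted p = 0.0365). The call was lost without Ctrl replicate 1 (log2 fold change -0.44, adjusted p = 0.200), Confine replicate 1 (0.126) or Confine replicate 3 (0.282). A processed pseudogene, Gm5417, lies within the gene on the same strand but shares no exon base with it.

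Pacsin3 (ENSMUSG00000027257.13, chr2:91255954-91264679, plus strand), the form best known from muscle, had 86.8, 82.3 and 109.6 normalized CPM in Ctrl and 78.8 and 87.6 in Confine. The groups overlapped, and the log2 fold change was -0.16 (SE 0.19, 95% interval -0.56 to 0.24, adjusted p = 0.601). The difference between the changes of Pacsin2 and Pacsin3 was not tested.

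**Figure D2:**
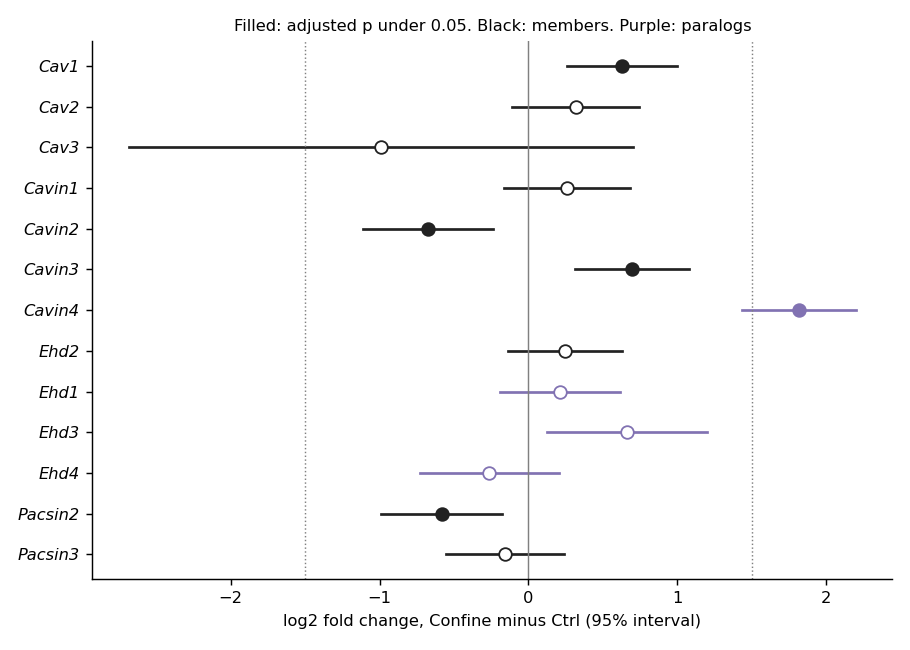
Log2 fold change of Confine against Ctrl (x axis) for the 9 members (black) and their tested paralogs Cavin4, Ehd1, Ehd3 and Ehd4 (purple), with 95% intervals from edgeR's fit; filled points had an adjusted p under 0.05 and dotted lines mark 1.5 in either direction. Among the members with filled points Cav1 and Cavin3 lie above 0 and Cavin2 and Pacsin2 below it. No member's point lies beyond the dotted lines, although the interval of Cav3 reaches beyond the lower one. Cavin4 lies furthest to the right at 1.82.

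Counts of different genes can be compared only per length. Per kilobase of exon, the mean order in Ctrl was Cavin1 (1574 normalized CPM per kb), Cav1 (85.0), Cavin2 (45.0), Ehd2 (23.3), Pacsin2 (21.5), Pacsin3 (21.5), Cavin3 (14.9), Cav2 (4.10) and Cav3 (0.666). The ranges of Ehd2, Pacsin2 and Pacsin3 overlapped, and the other neighbours in this order did not overlap. In Confine the order was Cavin1 (1882 normalized CPM per kb), Cav1 (131.4), Cavin2 (28.2), Ehd2 (27.7), Cavin3 (24.2), Pacsin3 (19.2), Pacsin2 (14.4), Cav2 (5.12) and Cav3 (0.321), and only Cavin2 and Ehd2 overlapped. Cavin1 and Cav1 led and Cav2 and Cav3 came last in both groups, while Cavin3 stood below Pacsin2 and Pacsin3 in Ctrl and above both in Confine. Cavin1 was 14.6 to 22.0 times the level of Cav1 per length in the Ctrl libraries, and 14.3 times in both Confine libraries. These levels use the whole annotated exon length of a gene and assume that all of it is transcribed.

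**Figure D3:**
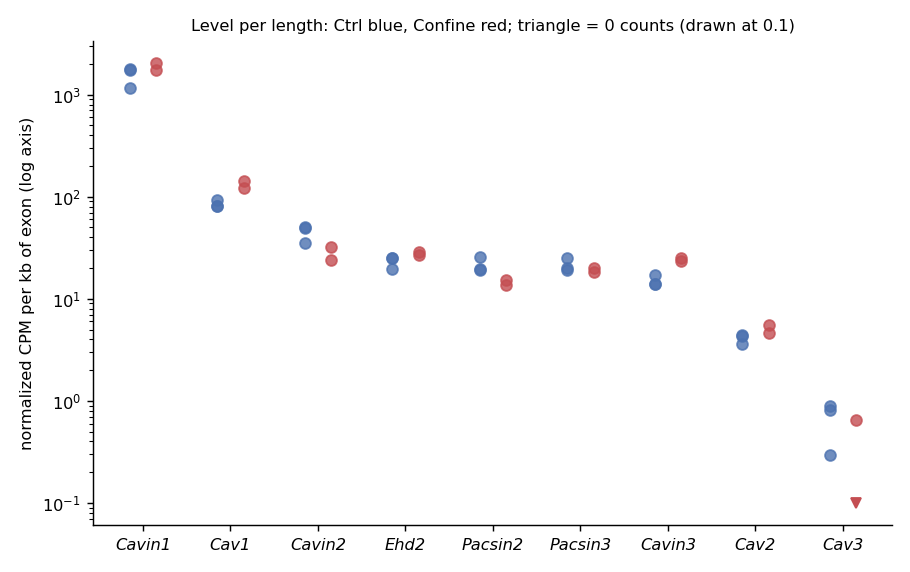
Normalized CPM per kb of exon (y axis, log scale) of the 9 members in each Ctrl (blue) and Confine (red) library, ordered by the Ctrl mean; the triangle is the Confine library with 0 counts of Cav3, drawn at 0.1. Cavin1 lies at 1174 or more in every library and Cav2 and Cav3 at 5.57 or less, and Cavin2 and Pacsin2 step down where Cav1 and Cavin3 step up.

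A ratio of 2 members within a library does not depend on how libraries are scaled to each other, and 6 such ratios were compared. The count of Pacsin2 relative to Cav1 was -1.34, -1.56 and -1.54 on the log2 scale in Ctrl and -2.70 and -2.65 in Confine. This ratio separated the groups most, by -1.20 between means of -1.48 ± 0.12 (SD, n = 3) and -2.68 ± 0.03 (SD, n = 2), with p = 0.1 in a two-sided exact permutation test. That p is the smallest that 3 libraries against 2 allow, so no ratio could reach 0.05. The log2 ratio of Cavin2 to Cavin1 was -5.35, -4.82 and -5.89 in Ctrl and -6.21 and -6.40 in Confine, which is -0.95 between the means with no overlap (exact p = 0.2).

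Cavin1 to Cav1 moved by -0.35 and Ehd2 to Cav1 by -0.37 on the log2 scale, both without overlap (exact p = 0.2 for each). Cav2 to Cav1 moved by -0.31 (exact p = 0.2) and Cavin3 to Cavin1 by 0.42 (exact p = 0.4), and both of these overlapped between the groups. Adjusted over the 6 ratios, the exact p-values were 0.24 for all but Cavin3 to Cavin1, which had 0.4. Cavin1 to Cav1 was nearly the same in both Confine libraries, 3.90 in each, while the Ctrl libraries ranged from 3.93 to 4.52.

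**Figure D4:**
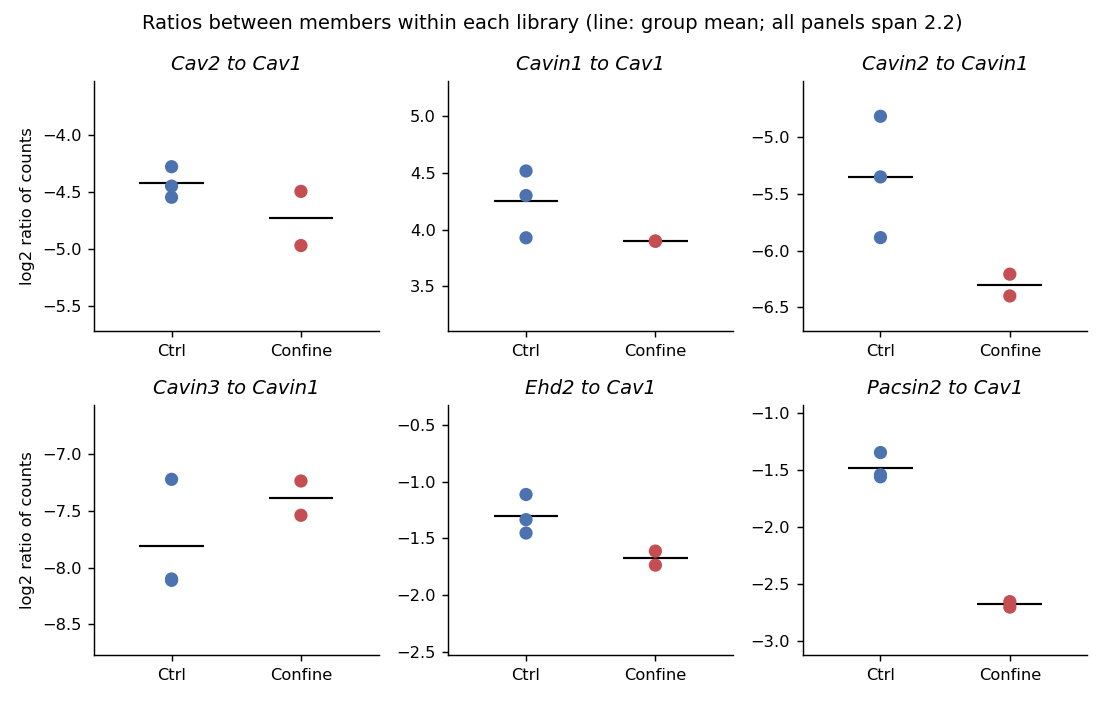
Log2 ratio of counts between members within each library (y axis, the same span in every panel) for the 3 Ctrl (blue) and 2 Confine (red) libraries, with lines at the group means. Pacsin2 to Cav1 shows the widest gap relative to its spread, and the groups overlap for Cav2 to Cav1 and Cavin3 to Cavin1.

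The paralogs and partners of the members were taken as a list of 13 genes, of which 11 were tested, 2 rose and none fell, with a median log2 fold change of 0.32. For this and the lists below, the counts stand beside 12.8% of all tested genes that rose, 10.2% that fell and a median of -0.0021, and no list was tested against these. Cavin4, the muscle cavin (chr4:48663514-48673502, plus strand), had 15.7, 14.5 and 17.9 normalized CPM in Ctrl and 54.0 and 58.7 in Confine. The lowest Confine library was far above the highest Ctrl library, the log2 fold change was 1.82 (SE 0.18, 3.52-fold, adjusted p = 8.88e-07), and the adjusted p stayed under 0.05 in all 15 alternative fits. Stx6, a SNARE that carries caveolin to the surface, rose by 0.64 on the log2 scale (adjusted p = 0.0131), a call lost without Ctrl replicate 1 (0.0667), Confine replicate 1 (0.109) or Confine replicate 3 (0.103) and with library size alone (0.0881). The EHD paralogs did not pass: Ehd1 had a log2 fold change of 0.21, Ehd3 of 0.66 (adjusted p = 0.0722) and Ehd4 of -0.26. Pacsin1, the neuronal form, was too low to be tested, with 1, 0 and 0 counts in Ctrl and 8 and 13 in Confine, and Ror1 had at most 1 count.

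Cavin4 and Cav3 are muscle genes, so the 8 skeletal muscle markers were read beside them. Their summed level was 5.03 to 7.05 normalized CPM in Ctrl and 14.1 to 16.7 in Confine. Most of each Confine sum was Des, with 9.05 and 12.8 normalized CPM. Of the 4 tested, 3 rose, namely Chrna1 (0 to 1 counts in Ctrl, 19 and 11 in Confine), Des (log2 fold change 1.43) and Acta1 (1.19). The expression filter kept Chrna1 through its Confine libraries, which favoured a rise. Ttn, the other marker tested, did not pass, with 18, 7 and 6 counts in Ctrl and 3 and 22 in Confine. Myod1 was at 0 counts in every library, Myog and Myh3 at 0 or 1 and Ckm at 0 to 2. The part of these markers in the result for Cavin4 was not tested.

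The lists for other cell types were read in the same way. The 8 endothelial markers summed to 0.595 to 1.36 normalized CPM in Ctrl and 2.43 to 2.70 in Confine, with Tie1, Emcn and Cldn5 at 0. Vwf, the 1 marker tested, rose and made up nearly all of the Confine sum (2.43 and 2.54 normalized CPM). It had 7, 17 and 7 counts in Ctrl and 72 and 64 in Confine. The expression filter thus kept it through its Confine libraries, which favoured a rise. Pecam1 had 1, 8 and 6 counts in Ctrl and 0 and 3 in Confine, and Kdr had 1, 11 and 0 against 0 and 1. The 8 adipocyte markers summed to 35.4 to 44.1 in Ctrl and 13.1 to 14.1 in Confine, with Cidec, Lep and Cd36 at 0, and Lpl and Pparg fell. Most of each Ctrl sum was Lpl, with 38.1, 26.4 and 35.2 normalized CPM in Ctrl and 7.60 and 4.41 in Confine. Fabp4, the other marker tested, did not pass edgeR's test (log2 fold change 0.09, adjusted p = 0.840). Pparg had 12, 17 and 7 counts in Ctrl and 0 and 1 in Confine, so the filter kept it through Ctrl and favoured a fall. The 7 smooth muscle markers summed to 1921 to 3064 in Ctrl and 1589 to 1699 in Confine, with Myocd at 0, Smtn up and Lmod1 down. Most of each sum was Acta2, with 2967, 1914 and 1842 normalized CPM in Ctrl and 1575 and 1407 in Confine. Acta2 did not pass edgeR's test (adjusted p = 0.0557), and Tagln had only 1 to 8 counts. The 12 fibroblast markers summed to 8912 to 9841 in Ctrl and 16037 to 16864 in Confine, and 6 of the 9 tested rose and 1 fell, where 12.8% and 10.2% of all tested genes did. The 8 leukocyte markers summed to 15.8 to 17.8 in Ctrl and 35.6 to 41.3 in Confine, with Adgre1 at 0. Of the 4 tested, Cd68, Cd14 and Csf1r rose and Lyz2 fell (log2 fold change -2.64). Most of the Confine sums was Cd68 (16.6 and 23.3 normalized CPM) and Cd14 (17.3 and 15.4). Ptprc had 2, 0 and 0 counts in Ctrl and 0 and 0 in Confine. Itgam had 1, 0 and 0 against 1 and 0, and Fcgr3 had 7, 0 and 0 against 0 and 0. The 6 epithelial markers summed to 0.340 to 0.416 in Ctrl and 3.89 to 8.77 in Confine, with Epcam, Krt18 and Cldn4 at 0. Krt19, the 1 marker tested, made up 3.85 and 8.10 of the Confine sums. It had 4, 7 and 5 counts in Ctrl and 114 and 204 in Confine, so the filter also kept it through Confine. In bulk RNA, a change in the share of cells and a change of RNA per cell cannot be told apart, and the part of these markers in the members' changes was not tested.

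Other routes of membrane uptake were read from lists of their own. Of 12 genes of flotillins and clathrin-independent carriers, 10 were tested, 1 rose and 1 fell, where 23.0% of all tested genes passed in either direction, with a median log2 fold change of 0.06. Flot1, a scaffold of flat lipid microdomains, fell from 202.5, 137.2 and 257.7 normalized CPM in Ctrl to 73.4 and 71.1 in Confine (log2 fold change -1.46, adjusted p = 1.29e-04). Cd44, a hyaluronan receptor carried by these routes, rose by 0.75 (adjusted p = 0.00783), which was lost without Ctrl replicate 3 (0.0554) or Confine replicate 1 (0.129). Sh3gl2 was at 0 counts.

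Of 23 genes of the clathrin coat and its adaptors, 22 were tested, 2 rose and 2 fell, also beside 23.0% of all tested genes, with a median of 0.26. Dnm3, a dynamin that cuts vesicles from the membrane, rose by 2.00 (adjusted p = 9.88e-07). Dnm1, another dynamin, rose by 0.72 (adjusted p = 0.0156), lost without Ctrl replicate 1 (0.0782) or Confine replicate 3 (0.267) and with library size alone (0.0817). The adaptor subunit Ap2m1 fell by 0.70 on the log2 scale (adjusted p = 0.0243), with adjusted p from 0.0661 to 0.165 without Ctrl replicate 1, Ctrl replicate 3, Confine replicate 1 or Confine replicate 3. Epn3, an epsin of 15 to 27 counts in Ctrl and 2 to 4 in Confine, had a log2 fold change of -2.77 (adjusted p = 0.00754, and 0.113 without Confine replicate 1). The expression filter kept Epn3 through its Ctrl libraries, which favoured a fall. With libraries scaled by their size alone, 1 gene of this list rose and 4 fell.

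All 12 linkers between membrane and actin cortex were tested, and 1 rose and 2 fell (12.8% and 10.2% of all tested genes), with a median of -0.13. Moesin (Msn) rose by 0.75 on the log2 scale (adjusted p = 0.00401), and its paralog radixin (Rdx) had a log2 fold change of -0.64 (adjusted p = 0.0157, and 0.109 and 0.134 without Confine replicate 1 and 3). The scaffold Slc9a3r2 had a log2 fold change of -0.74 (adjusted p = 0.0405). That call was lost without Ctrl replicate 1 (0.118), Ctrl replicate 3 (0.0536), Confine replicate 1 (0.0967) or Confine replicate 3 (0.268).

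Of 16 membrane repair genes, 15 were tested, 4 rose and none fell (12.8% and 10.2% of all tested genes), with a median of 0.38. Anxa2, a calcium-dependent membrane binder, had 3133, 2528 and 3076 normalized CPM in Ctrl and 7336 and 6704 in Confine (log2 fold change 1.27, adjusted p = 3.35e-05). Syt7, a calcium sensor of lysosome exocytosis, rose by 2.42 (adjusted p = 5.64e-05) and Anxa5 by 0.76 (adjusted p = 0.00355). S100a10, the partner of annexin A2, rose by 0.61 (adjusted p = 0.0234), lost without Ctrl replicate 1 (0.126), Ctrl replicate 3 (0.0531) or Confine replicate 3 (0.282) and with library size alone (0.128). Trim72, the muscle repair protein, was at 0 counts.

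Of 17 other F-BAR and BAR genes, relatives of the PACSINs, 16 were tested, 4 rose and 2 fell (12.8% and 10.2% of all tested genes), with a median of 0.18. Gas7 rose by 2.34 (adjusted p = 7.48e-07) and Mtss1 by 2.17 (adjusted p = 2.52e-06), both from under 5 normalized CPM in every Ctrl library. Fes, a tyrosine kinase with an F-BAR domain, was near the detection floor in Ctrl (0.173 to 0.255 normalized CPM). The expression filter kept Fes through its Confine libraries, which favoured a rise. It rose by 2.00 (adjusted p = 0.0190). That call was lost without Ctrl replicate 1 (0.0616), Confine replicate 1 (0.250) or Confine replicate 3 (0.0550), and with DESeq2 (0.0656). Pstpip1 fell by 1.55 on the log2 scale (adjusted p = 0.00792, and 0.0840 without Confine replicate 3). Amph was at 0 counts.

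**Figure D5:**
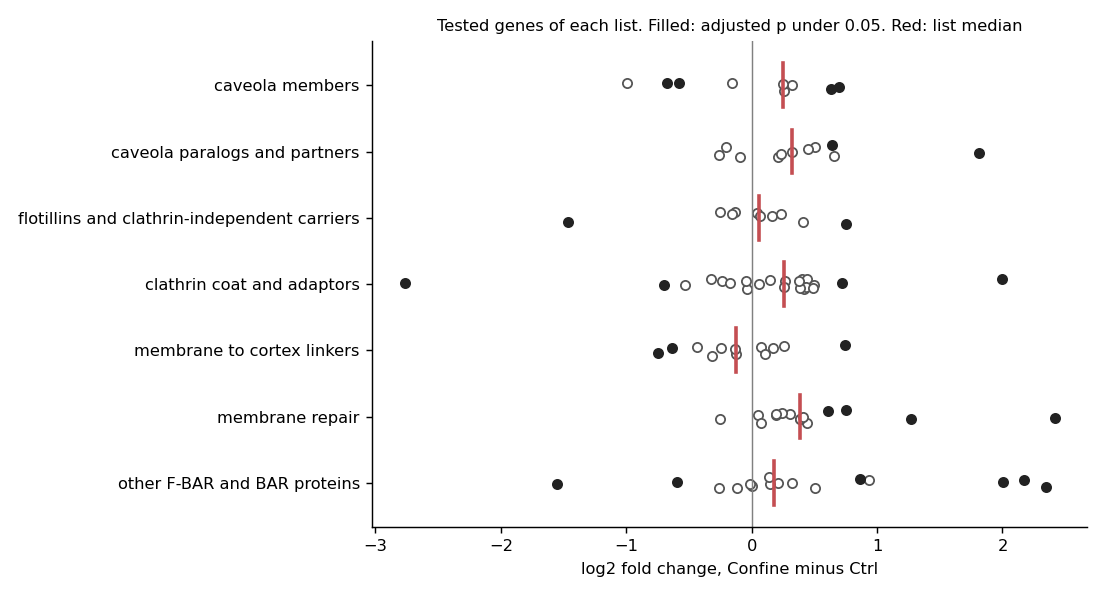
Log2 fold change of Confine against Ctrl (x axis) for the tested genes of the caveola members and the 6 lists around them (rows); filled points had an adjusted p under 0.05, red lines are list medians, and points are spread vertically only to be seen. The members lie within 1 of 0, and each list except membrane repair and the paralogs holds passing genes on both sides.

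The genes whose pattern over the 5 libraries was most like that of Cav1, by the root mean square difference of centred log2 CPM among 10456 genes, were Mrm1 (0.030), Bgn (0.036) and Gpr176 (0.039). For Cavin1 they were Blzf1 (0.031), Ammecr1l (0.036) and Fhl2 (0.039). The measure describes these libraries only.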

How the data were processed

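RNA-seq of 3 Ctrl and 3 Confine samples was deposited. The authors deposited raw counts per gene, without normalization. Libraries were made from poly(A) RNA with dUTP in the second strand. The submitters' processing notes name Trim Galore 0.6.10, HISAT2 2.1.0, SAMtools 1.5, featureCounts and mm10, while the annotation and the strand setting of counting are not given in the sources used here, so reads of overlapping genes on opposite strands may not be separated. Of 55335 gene IDs, 55154 matched GENCODE M21 (GRCm38) without their version, and this gave names, positions and exon lengths.

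Genes were filtered with filterByExpr (15881 kept), scaled by TMM (factors 0.910 to 1.08) and compared by edgeR's quasi-likelihood F-test (version 4.0.16, R 4.3.3), with Benjamini-Hochberg adjustment over all genes tested. The planned 3 against 3 became 3 against 2 because 2 columns were identical, leaving 3 residual degrees of freedom. edgeR adds to these by drawing each gene's variance towards that of other genes in the same libraries (median prior degrees of freedom 14.8). Its p-values and 95% intervals therefore rest largely on that shared variance. The detection floor covers counting error only, because PCR copies were not told apart. Ratios of counts plus 0.5 were compared by exact permutation. Near-identical copies were searched with blastn 2.17.0 at 95% identity over at least 100 bases, and only Gm45667 was found, for Cavin3. That match of 374 bases is the exon overlap of these genes on opposite strands and not a copy elsewhere. Motifs were counted in RefSeq promoter windows.

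All 9 members were named. From every other list the text names the passing genes, at most the 4 with the largest absolute log2 fold change, and genes at 0 counts. Ehd1, Ehd3, Ehd4, Pacsin1, Ror1 and the marker genes were named after their values were seen. The members and lists were chosen with earlier results of these data known. Alternatives were DESeq2 1.42.0, limma-voom (limma 3.58.1), other scalings, filters and cutoffs, the identical columns counted as 2 samples, a replicate block and leaving out each library. With 1 Confine library left, it is assumed to vary as the Ctrl libraries do. The main fit was tested on simulated counts with 198 changed genes. It called 58.6% of the changes of 1 on the absolute log2 scale and 83.8% of those of 2, and 7.24% of its calls were false. The members that passed had smaller absolute changes than those simulated.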

Additional observations from a re-analysis of the deposited data

How the results depend on the processing

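The direction of every member was the same in all alternatives that gave a value. Of the 15 alternative fits, 1 counted the identical columns as 2 samples. It enters a library more than once, so its p-values are too small and give no added support. That fit is among those counted as passing for Cav1, Cavin2, Cavin3, Pacsin2 and Cavin4. Of 15 alternative fits, an adjusted p under 0.05 held in 11 for Cav1 (log2 fold change 0.42 to 0.73), 12 for Cavin2 (-0.89 to -0.48), 10 for Cavin3 (0.49 to 0.80) and 11 for Pacsin2 (-0.79 to -0.43). It held in 0 for Cav2, Cavin1, Ehd2 and Pacsin3, and in 1 of 14 for Cav3, which the minimum of 10 counts in every library left untested. With library size alone, the median log2 fold change of all genes was -0.21, 1444 genes rose and 2805 fell in place of 2035 and 1619, with 0 members higher. Then 1 of the paralogs and partners rose, 1 clathrin gene rose and 4 fell, and the calls of Stx6, Dnm1 and S100a10 were lost. Another scaling moves the log2 fold changes of all genes by nearly the same amount. Relative to that shift the members' changes thus stay the same by construction, which cannot show which scaling is right. The median was -0.015 with DESeq2 size factors in edgeR and -0.017 with DESeq2. At an absolute log2 fold change above 1.5, 0 members rose and 0 fell, and at an adjusted p under 0.01, 1 rose and 0 fell. Leaving out 1 library gave 0 to 2 members higher and 0 to 2 lower.

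The replicate numbers could be shared only by 2 Confine libraries, so no pairing was assumed. With a replicate block and the repeated library as number 2, 0 members rose and 0 fell (1448 genes rose and 1080 fell in all), and the calls of Stx6 (adjusted p = 0.111), Rdx (0.0956), Slc9a3r2 (0.159), Ap2m1 (0.173), Dnm1 (0.120), Fes (0.129) and S100a10 (0.222) in the lists around caveolae were lost. As number 1 the block gave 2640 genes higher and 2293 lower. Under that numbering Cav1 (adjusted p = 0.00815) and Cavin3 (0.000713) rose and Cavin2 (0.00525) and Pacsin2 (0.00329) fell. No other member passed. Same-numbered differences correlated across genes at 0.052 and -0.053 under these numberings, and the block left 1 residual degree of freedom. The newer quasi-likelihood method of edgeR was added after seeing the data. The value of Cav3 (0 to 30 counts) went from -0.05 to -7.34 with the Confine library left out, the latter fitted against 0 counts and no bound of a fold.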
